A study of Homo sapiens with 12 samples.

Results

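The comparison described here set the 3 arrays of H9 cells labelled retinoic acid (RA) at day 6 against the 3 arrays of untreated H9 cells at day 0 (d0), 6 of the 12 arrays of the series, chosen by their sample titles. H9 is a long-established human embryonic stem cell line. All 12 arrays came from H9 cells carrying a Tet-on construct, which switches on GCNF when doxycycline (Dox) is added; GCNF is an orphan nuclear receptor encoded by NR6A1. The untreated d0 cells were grown on a basement membrane matrix in mTeSR, a defined stem cell medium. The RA-labelled cells were kept for 6 days in DMEM/F12 with 15% fetal bovine serum and 1 µM RA. A second day 6 group had 1 µg/ml Dox in the same serum medium for 6 days (Dox-labelled), and a second d0 group had 1 µg/ml Dox for 4 days. Passages 28 to 35 were given for every group, and the sources used here do not say whether the line is a single clone. Medium, serum, time and RA all differ between the RA-labelled and the untreated d0 arrays and cannot be told apart in this comparison. The comparison of the RA-labelled with the Dox-labelled arrays holds medium and time constant, and was the study's stated comparison at day 6.

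Signals are the deposited linear intensities of the array, and 1 probe set stood for each of 19775 genes. The median signal of a probe set was 64.2 to 78.0 per array, and the mean after trimming 2% at each end was 500 on every array. RA-labelled arrays correlated with d0 arrays at r = 0.9253 to 0.9301 over all probe sets, and with Dox-labelled day 6 arrays at 0.9655 to 0.9683. The 3'-to-5' signal ratio of ACTB, which rises as RNA breaks down, was 3.302, 3.081 and 3.338 at d0 and 2.924, 2.414 and 2.429 in the RA-labelled arrays, so it moved with the groups; its part in the results was not tested. The arrays are labelled biological replicates without further detail, so a p-value here reflects only how the arrays of a group scatter, which may be technical. Differences are given on the log2(signal + 16) scale with the standard error (SE), n = 3 arrays per group, and adjusted p from limma with Benjamini-Hochberg adjustment over all genes. A gene is said to have risen or fallen where that adjusted p was under 0.05.

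The label of the RA group was checked first against genes it should touch. CYP26A1 and CYP26B1 encode the enzymes that break down RA, and CYP26A1 is among the genes RA induces most directly. CYP26A1 signal was 4784, 4368 and 4330 at d0, 312.4, 259.9 and 241.1 in the RA-labelled arrays and 30701, 29345 and 28736 in the Dox-labelled day 6 arrays. CYP26B1 signal was 64.54, 41.82 and 51.53 at d0, 32.89, 54.62 and 52.25 in the RA-labelled arrays and 5412, 5090 and 4722 in the Dox-labelled arrays. Both genes were thus high in the arrays that are not labelled RA, with no overlap between the day 6 groups. The construct's gene, NR6A1, was read by 7 probe sets, and at d0 Dox raised 6 of them. At day 6, 3 of the 7 were higher and 3 lower in the RA-labelled than in the Dox-labelled arrays, and the same 3 and 3 rose and fell against d0. The probe set that Dox raised most at d0 read 46.93, 19.48 and 13.99 in untreated d0 arrays and 605.8, 660.1 and 580.1 with Dox. It read 355.2, 395.3 and 257.5 in the RA-labelled arrays and 31.56, 14.51 and 41.56 in the Dox-labelled ones. The brightest probe set ran the other way, with 1328, 1496 and 1548 at d0, 2710, 2715 and 3180 with Dox at d0, 502.6, 509.8 and 571.3 in the RA-labelled arrays and 857.9, 1264 and 903.5 in the Dox-labelled arrays. CYP26A1 and CYP26B1 thus go against the day 6 labels, while between the day 6 groups the NR6A1 probe sets are split, 3 against the labels and 3 with them. Against untreated d0, 2 of the 7 were higher in the Dox-labelled arrays, 3 were lower and 2 did not pass. Those 3 lower ones (-0.77, -0.64 and -0.54) are the 3 that go with the labels, although Dox raised them at d0. They fell less in the Dox-labelled than in the RA-labelled arrays, and neither day 6 group was above d0. For this reason the day 6 groups are called RA-labelled and Dox-labelled throughout, and each direction below is one between groups as labelled.

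Human embryonic stem cells hold their state through the transcription factors OCT4, SOX2 and NANOG, fed by FGF and by nodal and activin signals in the medium. When these are withdrawn and serum is added, cells leave that state, and RA is widely used to steer them: it binds nuclear receptors (RAR and RXR) that sit on direct repeats near their target genes and switch on HOX and other patterning genes. GCNF is known in the mouse as a repressor of pluripotency genes during that exit.

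Between d0 and the RA-labelled arrays 9993 of 19775 genes changed (50.5%), 5007 of them higher (25.3%) and 4986 lower (25.2%). A change of at least 2-fold was reached by 2119 genes in the higher direction (10.7%) and 2100 in the lower (10.6%). The 3 arrays of each group did not overlap for 56.3% of genes. With a background of this size, a list with shares of rises and falls near these does not stand apart from all genes.

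The 15 largest rises included genes of several kinds. GALNT16, an enzyme that starts sugar chains on secreted proteins, read 152.8, 163.6 and 127.2 at d0 and 8231, 9505 and 8713 in the RA-labelled arrays (log2 difference 5.76 ± 0.09, adjusted p = 4.27e-10). LOX, which crosslinks collagen and elastin, read 428.3, 437.1 and 399.9 and then 15523, 14644 and 13430 (5.05 ± 0.10). THBD, the thrombin receptor thrombomodulin, rose from 69.41, 51.01 and 33.59 to 2044, 1753 and 2087 (4.91 ± 0.19). The ligand TGFB1 rose from 117.3, 72.05 and 108.5 to 2718, 2929 and 2636 (4.61 ± 0.16), and CDKN2B, a CDK4 and CDK6 inhibitor, from 295.6, 273.8 and 267.5 to 6916, 7090 and 6566 (4.54 ± 0.11). The other genes among the 15 largest rises were ADGRA2, LOXL4, FILIP1L, CLSTN2, SP100, ARID5B, BNC1, BHLHE40, MBNL2 and FLJ16779, between 4.33 and 4.86.

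The 15 largest falls included 3 nodal pathway genes. LEFTY1, a secreted nodal inhibitor and itself a nodal target, read 26618, 23665 and 29253 at d0 and 402.5, 318.9 and 321.6 in the RA-labelled arrays (-6.19 ± 0.14, adjusted p = 9.21e-10). The ligand NODAL read 4541, 3931 and 4248 and then 74, 69.11 and 43.25 (-5.79 ± 0.26), and FOXH1, the SMAD partner that carries nodal signals to DNA, 3795, 3678 and 3204 and then 87.54, 55.29 and 74.21 (-5.35 ± 0.16). RMST, a long noncoding RNA known to work with SOX2, read 1528, 1322 and 1529 and then 6.08, 12.95 and 5.807 (-5.93 ± 0.21). ESRP1, the splicing regulator of epithelial cells, read 4289, 3713 and 4100 and then 248.3, 160.5 and 124.2 (-4.43 ± 0.20). NPY1R, NPTX1, RARRES2, LINC01844, SCG3, HLA-DPB2, LCK, CALB1, CR2 and ADCY2 made up the rest of the 15 largest falls, between -5.36 and -4.46. For each of these 30 genes all arrays of one group lay beyond all arrays of the other, which the rule that named them required.

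**Figure D1:**
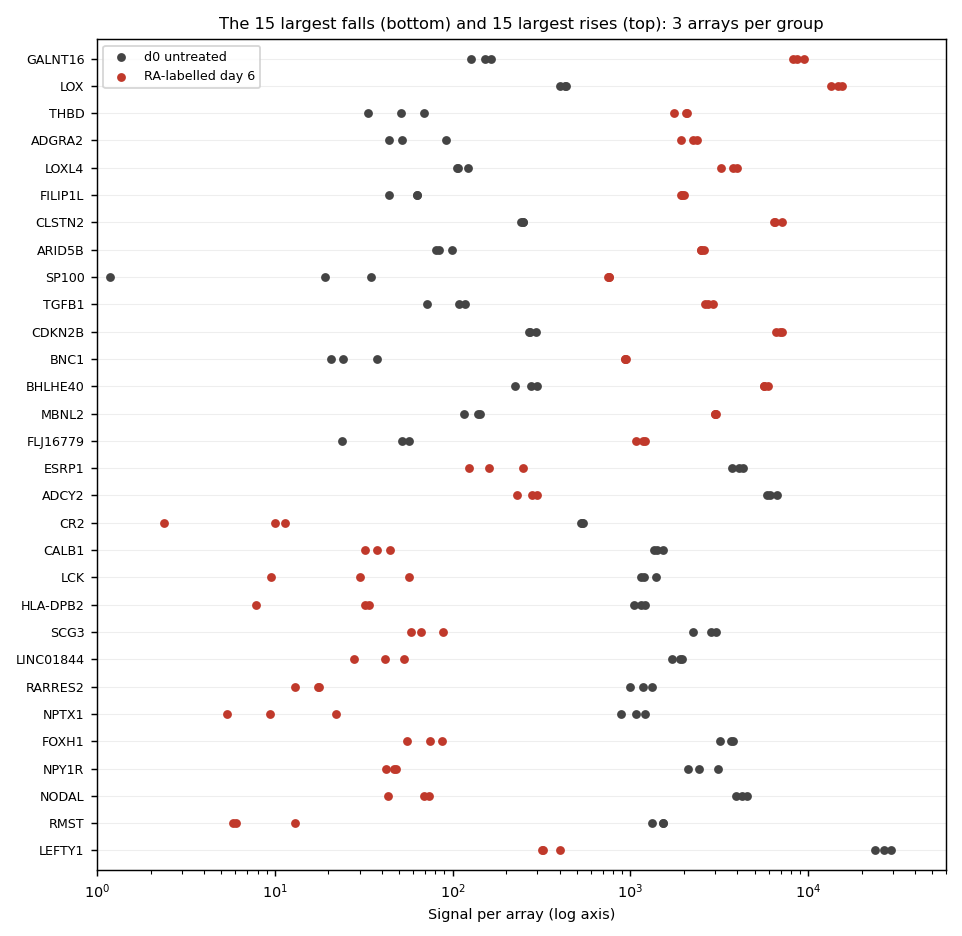
Signal on each array (horizontal log axis) of the 15 genes with the largest falls, at the bottom, and the 15 with the largest rises, at the top, with 3 untreated d0 arrays in grey and 3 RA-labelled day 6 arrays in red. GALNT16 at the top goes from 127.2 to 163.6 at d0 to 8231 to 9505, and LEFTY1 at the bottom from 23665 to 29253 down to 318.9 to 402.5.

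Genes of the pluripotent state fell together. Of 26 measured core and naive pluripotency factors 21 fell, 2 rose and 3 did not pass, with a median log2 difference of -2.06 against -0.01 over all genes. NANOG read 11547, 11189 and 12279 at d0 and 638.9, 594.2 and 686.3 in the RA-labelled arrays (-4.16 ± 0.08, adjusted p = 4.27e-10). SOX2 read 16301, 17211 and 17423 and then 2038, 2367 and 1913 (-3.01 ± 0.10), which is still 8.04-fold lower with no overlap. The TGF-beta family ligand GDF3 (-4.29) and the transcription factors PRDM14 (-3.39), ZSCAN10 (-3.79), FOXD3 (-2.93), SALL4 (-2.04) and ZFP42 (-1.80) fell as well. OCT4 (POU5F1) had no probe set of its own here; the probe set it shares with 3 near-identical copies fell from 13488, 13502 and 15012 to 916.9, 848.2 and 936.4. KLF5 (0.87) and TBX3 (1.21) were the 2 that rose, and ESRRB, ETV4 and ZFP57 did not pass. In bulk RNA, fewer cells of a kind and less RNA per cell cannot be told apart, here or in any result that follows. The labelled cell type of the d0 arrays thus held for its defining markers, while in the RA-labelled arrays these markers were lower but not at the floor of the array.

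Of 12 RNA-binding proteins and noncoding RNAs of stem cells, 9 fell and 2 rose. L1TD1, an RNA-binding protein of human stem cells, fell from 18038, 17798 and 18229 to 893.7, 938.5 and 884.6 (-4.29 ± 0.07). LIN28A, which blocks let-7 maturation, fell by less (-1.47), and RBFOX2 (0.95) rose. The array has 1 probe set annotated to MIR302B, a gene of the miR-302 and miR-367 cluster. It read 28883, 25681 and 32544 at d0, 7499, 6301 and 6793 in the RA-labelled arrays and 280.6, 275.3 and 269.9 in the Dox-labelled arrays. The fall against d0 was 4.21-fold (log2 -2.08 ± 0.10, adjusted p = 4.69e-08), and all 3 groups stood apart. The cluster is a known hallmark of human embryonic stem cells, and its mature 3' arms are shown because 4 of the 5 share a seed, the bases 2 to 8 that pair with targets, in capitals below. They lie on the minus strand of chromosome 4 between 112647877 and 112648511 (GRCh38.p14, from RefSeq), and their own levels were not measured on this array.
hsa-miR-302a-3p: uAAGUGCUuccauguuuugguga
hsa-miR-302b-3p: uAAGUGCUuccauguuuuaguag
hsa-miR-302c-3p: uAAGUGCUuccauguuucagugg
hsa-miR-302d-3p: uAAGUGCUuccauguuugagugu
hsa-miR-367-3p: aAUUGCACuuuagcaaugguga
The miR-302 members all carry the seed AAGUGCU, while miR-367-3p carries AUUGCAC.

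Of 15 DNA methylation and demethylation genes, 9 fell and 5 rose. DNMT3B, the de novo methyltransferase most tied to embryonic stem cells, read 19146, 16801 and 19515 at d0 and 1487, 1305 and 1255 in the RA-labelled arrays (-3.76 ± 0.09, adjusted p = 1.01e-09). TET1, which oxidises methylcytosine, fell from 6728, 6081 and 6509 to 810.3, 857.6 and 768.6 (-2.96 ± 0.09), whereas its relatives TET2 (1.51) and TET3 (0.52) rose. DNMT1, the maintenance enzyme, and its partner UHRF1 fell by less (-1.06 and -1.51). Mouse work has named several genes as bound or repressed by GCNF, and of 12 of these read here 8 fell and none rose (median -1.33); besides NANOG, SOX2, DNMT3B and CYP26A1 these were FGF4 (-3.07), ZFP42, DNMT3L (-0.86) and GPD2 (-0.55). The germ cell genes GDF9, BMP15, PRM1 and PRM2 of that list did not pass.

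**Figure D2:**
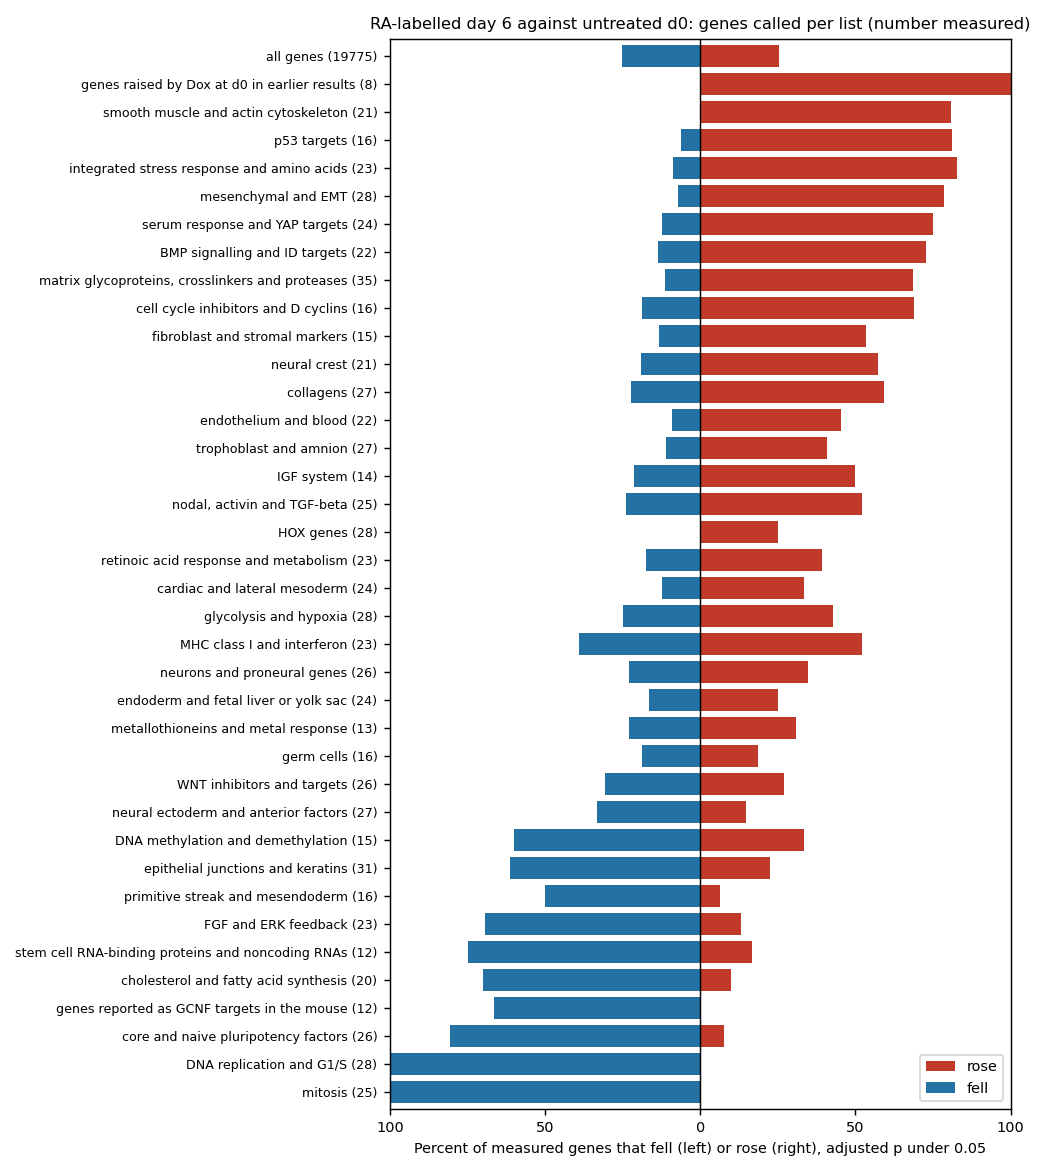
Percent of the measured genes of each list that rose (red, right) or fell (blue, left) in RA-labelled day 6 arrays against d0, with the number measured in brackets and all 19775 genes in the top bar. Mitosis (25 of 25) and DNA replication (28 of 28) fell without exception among the genes measured, and the 17 smooth muscle genes that changed of 21 all rose.

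Signalling genes of the nodal and TGF-beta list moved in both directions: 13 of 25 rose and 6 fell. The embryonic members NODAL, LEFTY1, GDF3 and CER1 (1545, 1393 and 1242 at d0; 101.3, 59.51 and 76.16 in the RA-labelled arrays) fell, as did the receptor ACVR2B (-1.22). The TGF-beta ligands rose, with TGFB2 going from 579.6, 417.4 and 525 to 6653, 7568 and 8188 (3.85 ± 0.12, adjusted p = 3.87e-09) and TGFB3 by 1.20. LTBP2, a matrix protein of the latent TGF-beta binding protein family, read 402, 420.6 and 467.6 and then 6813, 7177 and 8048 (4.04 ± 0.09). The receptor TGFBR2 rose by 1.21, and TGFBI, a matrix protein named for its induction by TGF-beta, from 1198, 1173 and 1383 to 20059, 17328 and 19185 (3.90 ± 0.08). Activin subunits INHBA (2.79) and INHBE (2.53) and the activin inhibitor FSTL3 (2.86) rose, while FST, the inhibitor follistatin, did not pass (0.15). NODAL, LEFTY1, GDF3 and CER1 were thus low, and TGFB1, TGFB2, TGFB3 and INHBA high, in all 3 RA-labelled arrays, with no overlap with d0.

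In the BMP list 16 of 22 genes rose and 3 fell, with a median of 1.31. The receptor BMPR2 rose from 1116, 1135 and 1146 to 8025, 7476 and 7704 (2.75 ± 0.07, adjusted p = 1.01e-09). The secreted inhibitors rose together: GREM1 (1684, 1949 and 1716; then 11192, 11410 and 10901), NOG (2.14), CHRD (2.60) and NBL1 (1.83). The direct targets were mixed: ID1 fell from 7347, 7352 and 7404 to 3386, 3283 and 3276 (-1.15 ± 0.09), ID2 did not pass (0.04), and ID3 (1.10), ID4 (1.25), SMAD6 (1.14), MSX1 (1.37) and MSX2 (1.85) rose.

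FGF genes fell as a group, 16 of 23 with 3 rises (median -1.08). Among ligands, FGF19 went from 370.1, 351.1 and 355.5 to 13.11, 5.729 and 23.96 and FGF8 from 253.9, 189.4 and 263.7 to 4.61, 6.734 and 3.217; both are near the floor in the RA-labelled arrays, where the size of the log2 difference (-3.67 and -3.58) rests on the added 16. FGF2, also supplied by stem cell media, fell by 1.82 on the log2 scale. Of the receptors FGFR2 went from 5394, 5478 and 4989 to 617.5, 660.3 and 639.5 (-3.02 ± 0.08), FGFR4 by -2.91, FGFR1 by -0.96 and FGFR3 by -0.78. The feedback genes SPRY1 (-2.78), SPRY4 (-1.11) and DUSP6 (-0.44) fell, but the immediate early gene EGR1 rose from 323.4, 304.6 and 319.9 to 3268, 3537 and 3377. WNT genes stayed near the background, 7 rising and 8 falling of 26. SFRP2, a secreted WNT antagonist, fell from 6221, 6254 and 6018 to 297.7, 290.1 and 256.7 (-4.38 ± 0.07), while DKK3, of the dickkopf family, rose from 2626, 2440 and 2616 to 16525, 15772 and 15973 (2.64 ± 0.08). The WNT targets AXIN2 (-0.82) and LEF1 (1.97) went opposite ways.

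**Figure D3:**
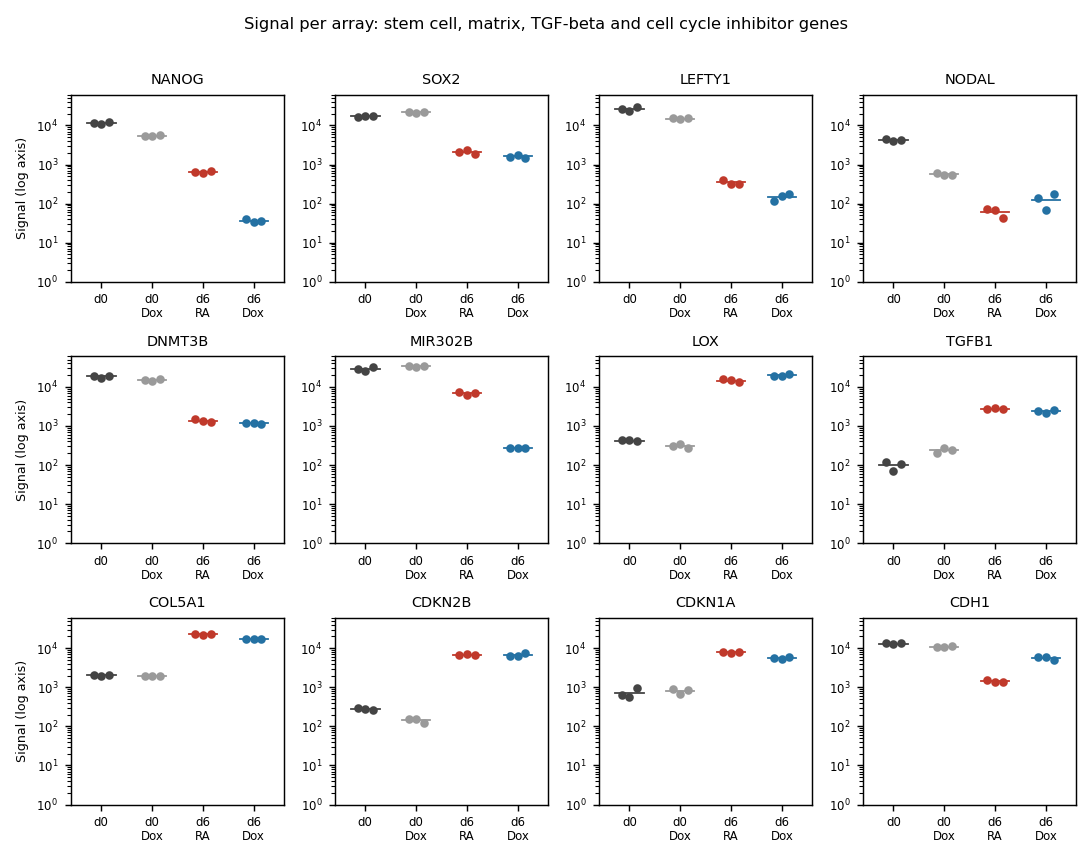
Signal on every array (vertical log axis) of 12 genes in the 4 groups, with a line at each group mean. NANOG, LEFTY1 and MIR302B are lower in the RA-labelled arrays (d6 RA, red) than at d0, and LOX, TGFB1 and CDKN2B higher, with no overlap; NANOG and MIR302B are lower again in the Dox-labelled arrays (d6 Dox, blue).

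The cell cycle lists moved in 1 direction. All 28 measured genes of DNA replication and G1/S fell (median -2.07) and all 25 of mitosis fell (median -2.52), beside 25.2% of all genes. MCM5, a subunit of the replicative helicase, read 3159, 3070 and 3597 at d0 and 297, 351.6 and 269.3 in the RA-labelled arrays (-3.36 ± 0.10, adjusted p = 3.16e-09). CDT1, which loads that helicase, read 1922, 2021 and 1573 and then 180.9, 169.5 and 156.6 (-3.32 ± 0.21), and CDC6, its partner in loading, 1608, 1860 and 1588 and then 249.8, 246.1 and 264.3 (-2.66 ± 0.10). Among mitosis genes, BUB1B, a spindle checkpoint protein, went from 7251, 6902 and 8034 to 821.1, 710.3 and 692.1 (-3.29 ± 0.11), and MKI67, the proliferation marker Ki-67, from 1156, 1289 and 1148 to 136.5, 94.2 and 101.5 (-3.27 ± 0.18). BUB1, the checkpoint kinase, fell from 5274, 5522 and 5212 to 574.9, 579.7 and 535.8 (-3.21 ± 0.07). The smallest falls were in CENPA (-1.13) and PLK1 (-1.69) of the mitosis list and TYMS (-0.63) and PCNA (-0.91) of the replication list. Of the inhibitors and D cyclins 11 of 16 rose and 3 fell. Besides CDKN2B these included CDKN2A (73.08, 94.25 and 69.68; then 1065, 1381 and 1178) and CDKN1A, the p53 target p21 (626.9, 570.4 and 940.4; then 8186, 7457 and 7980, 3.47 ± 0.18). Among the D cyclins CCND3 rose most (2.44), and RBL1 (-1.55) and GAS1 (-1.26) fell. Of 16 p53 targets 13 rose and 1 fell, with FAS (2.59), TP53INP1 (2.63), GADD45A (2.27) and ZMAT3 (2.19) up and PMAIP1 (-1.63) down; MDM2 rose by 0.62.

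Promoters of these cell cycle genes carry known elements, shown here because the genes moved together: the CHR (cell cycle genes homology region) bound by the DREAM and MuvB complexes, the CCAAT box bound by NF-Y, and sites for E2F. The window was the 250 bases before and 50 after the RefSeq start site (GRCh38.p14), read on both strands. The CHR was searched as TTTGAA or TTCGAA, the CCAAT box as CCAAT, and the E2F site as TTTGGCGC, TTTCCCGC, TTTGCCGC or TTTCGCGC. A CHR was found in 14 of 20 mitosis promoters in the table (70%), beside 16.6% of all 27305 promoters and 13.3% of the 15384 of genes on the array. In the other lists the CHR share reached at most 41.7% (neural crest genes, 5 of 12). A CCAAT box stood in 18 of the 20 (90%), beside 35.7% and 36.1%. In the other lists its share ran from 16.7% (IGF genes) to 81.8% (HOX genes), so a high share was not particular to mitosis genes. An E2F site stood in 16 of 24 replication promoters (66.7%), beside 3.33% and 4.36%. These are matches of letters and show no binding. The promoters below are those with the largest falls among genes holding the motif, which is in capitals. MKI67 lies on chromosome 10 (chr10:128126374-128126673, minus strand), with CHR matches starting at -47 and -29 from the start site and CCAAT matches at -98 and -24, the last of which overlaps the CHR before it. BUB1 lies on chromosome 2 (chr2:110678014-110678313, minus strand), with a CHR match at 2 and CCAAT matches at -79 and -54. CDT1 (chr16:88803539-88803838, plus strand) has an E2F match at -35 and CDC6 (chr17:40287629-40287928, plus strand) at 8.
MKI67: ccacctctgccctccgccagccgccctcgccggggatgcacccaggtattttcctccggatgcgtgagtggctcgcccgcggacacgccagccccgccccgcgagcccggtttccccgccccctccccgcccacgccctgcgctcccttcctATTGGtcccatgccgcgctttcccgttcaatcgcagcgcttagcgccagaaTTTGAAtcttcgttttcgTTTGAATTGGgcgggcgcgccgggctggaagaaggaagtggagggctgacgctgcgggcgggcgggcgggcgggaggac
BUB1: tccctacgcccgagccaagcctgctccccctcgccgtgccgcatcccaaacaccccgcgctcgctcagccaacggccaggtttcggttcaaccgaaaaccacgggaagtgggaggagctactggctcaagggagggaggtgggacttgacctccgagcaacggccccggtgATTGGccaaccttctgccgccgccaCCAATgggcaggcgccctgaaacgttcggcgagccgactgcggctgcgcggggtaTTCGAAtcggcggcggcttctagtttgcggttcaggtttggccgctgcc
CDT1: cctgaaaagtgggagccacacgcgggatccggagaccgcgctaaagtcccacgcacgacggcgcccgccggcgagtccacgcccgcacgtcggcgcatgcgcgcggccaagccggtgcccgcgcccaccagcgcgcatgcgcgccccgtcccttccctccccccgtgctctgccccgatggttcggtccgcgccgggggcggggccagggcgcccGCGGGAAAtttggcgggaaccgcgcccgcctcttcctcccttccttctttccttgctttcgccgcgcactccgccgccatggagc
CDC6: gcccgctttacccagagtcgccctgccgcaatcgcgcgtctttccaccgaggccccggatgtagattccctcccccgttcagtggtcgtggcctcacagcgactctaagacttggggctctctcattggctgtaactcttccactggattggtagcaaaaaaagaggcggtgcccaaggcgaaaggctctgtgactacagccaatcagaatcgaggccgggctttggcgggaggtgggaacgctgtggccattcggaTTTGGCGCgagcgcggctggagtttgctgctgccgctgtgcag

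**Figure D4:**
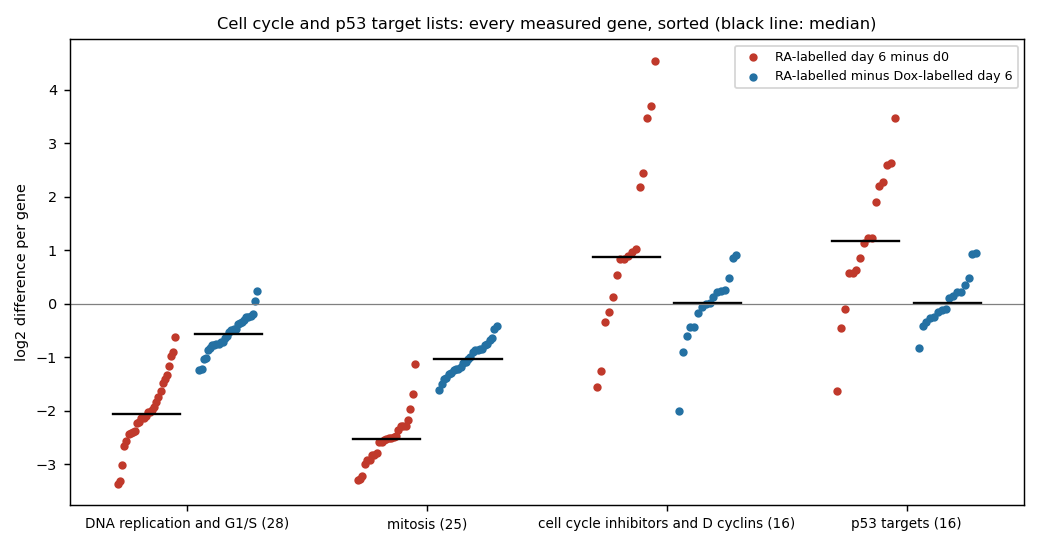
log2 difference (vertical axis) of every measured gene of 4 lists, sorted within each, for RA-labelled day 6 minus d0 (red) and RA-labelled minus Dox-labelled day 6 (blue), with a black line at the median. All replication and mitosis genes lie below 0 against d0, with medians of -2.07 and -2.52, and most also lie below 0 against the Dox-labelled arrays, with medians of -0.57 and -1.03.

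In the retinoid list, where RA-labelled arrays would be looked at first, 9 of 23 genes rose and 4 fell, beside 25.3% and 25.2% of all genes. The other 10 did not pass, and the median difference was -0.02. MEIS2, a homeobox cofactor, rose from 248.5, 310.4 and 196.5 to 2195, 2136 and 2113 (3.04 ± 0.13, adjusted p = 2.51e-08), and stood at 13029, 14104 and 13244 in the Dox-labelled arrays. CRABP2, which carries RA to its receptors, rose from 429.6, 488.5 and 407.7 to 1891, 2278 and 1804 (2.13 ± 0.10), with 14695, 15521 and 14196 in the Dox-labelled arrays. RARB, an RA receptor and a direct RA target, rose from 73.76, 34.16 and 64.71 to 232.9, 188.7 and 239.1 (1.72 ± 0.19), with 1989, 1967 and 1957 in the Dox-labelled arrays, while none of its other 4 probe sets was called against d0. For these 3 genes the RA-labelled arrays thus lay between d0 and the Dox-labelled arrays. RARRES2, the chemoattractant chemerin, whose other name is retinoic acid receptor responder, fell from 1321, 998.7 and 1175 to 17.39, 17.8 and 13.01 (-5.20 ± 0.12). The latter signals are near the added 16, on which the size of this fall rests. CYP26A1 fell by 3.98 on the log2 scale. ALDH1A3, an RA-synthesizing enzyme, also fell (-1.92). No gene of the list was higher in the RA-labelled than in the Dox-labelled arrays and 16 of 23 were lower, beside 12.2% and 13.7% of all genes; without RA-labelled replicate 3, 2 genes were higher, and with a pseudocount of 1, 1 was. RARB is shown because its promoter holds a DR5 retinoic acid response element, a direct repeat with a spacer of 5 bases, in capitals, starting at -53 (chr3:25428013-25428312, plus strand, GRCh38.p14, from RefSeq). The element was found in 22 of 27305 promoters (0.0806%) and in 1 of 19 of this list.
RARB: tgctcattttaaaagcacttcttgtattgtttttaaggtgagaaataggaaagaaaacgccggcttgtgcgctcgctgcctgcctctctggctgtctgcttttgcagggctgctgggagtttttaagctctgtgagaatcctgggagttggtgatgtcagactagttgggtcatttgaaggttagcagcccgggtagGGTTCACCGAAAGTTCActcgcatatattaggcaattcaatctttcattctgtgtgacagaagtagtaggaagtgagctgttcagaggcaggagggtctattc

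HOX genes, which RA is known to open in order along each cluster, were mostly dim: 7 of 28 rose and none fell, while 21 did not pass. The share of rises was close to that of all genes (25.3%), and only the falls, 25.2% of all genes, were fewer. Without d0 replicate 2, 1 fell, and with dim genes left out of the test 1 rise was counted. HOXB2 rose from 82.31, 71.46 and 56.54 to 267.2, 262.7 and 336.8 (1.83 ± 0.15, adjusted p = 2.63e-06), and HOXB3 from 1.064, 24.72 and 19.4 to 203.3, 127.9 and 131.2 (2.52 ± 0.31), with the other probe set of HOXB3 not called. In the Dox-labelled arrays HOXB2 stood at 2559, 2911 and 2513 and HOXB3 at 1970, 1986 and 1534. The summed signal of the 28 genes was 578.5 to 708.6 at d0, 1142 to 1327 in the RA-labelled and 7312 to 8673 in the Dox-labelled arrays. Against the Dox-labelled arrays 10 of 28 were lower and none higher.

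Most measured genes of the extracellular matrix and mesenchymal lists rose. Of 27 collagens 16 rose and 6 fell (median 1.29). COL5A1, a fibril-starting collagen, read 2084, 1902 and 2087 at d0 and 23223, 21853 and 23178 in the RA-labelled arrays (3.48 ± 0.06, adjusted p = 4.27e-10), and COL11A1 1563, 1528 and 1549 and then 17231, 16176 and 17428 (3.44 ± 0.07). COL7A1, of anchoring fibrils, rose by 2.76 and COL1A1, COL1A2 and COL3A1, the main fibril collagens of connective tissue, by 1.29, 1.99 and 2.58. COL9A1 (-3.51) and COL2A1 (-1.50) were among the 6 collagens that fell. Of 35 matrix glycoproteins, crosslinkers and proteases 24 rose and 4 fell (median 1.79). The proteoglycan BGN rose from 287.9, 254.6 and 194.9 to 2513, 2950 and 2866 (3.43 ± 0.21), FBLN2 by 3.34, TNC from 988.3, 982.4 and 1011 to 9291, 9978 and 10138 (3.28 ± 0.06), and the crosslinkers LOXL1 and LOXL2 by 2.98 and 2.80. The proteoglycan VCAN, at 21253 in the mean at d0, fell (-0.87), as did THBS2 (-0.78) and the proteases MMP1 (-1.40) and MMP9 (-0.98), while MMP2 (2.33) and MMP14 (2.01) rose.

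Of 28 mesenchymal and EMT genes 22 rose and 2 fell (median 1.78). The transcription factors that repress E-cadherin rose: ZEB2 from 48.01, 64.8 and 33.05 to 1170, 1232 and 1334 (4.31 ± 0.23, adjusted p = 1.26e-07), ZEB1 from 79.64, 103.9 and 93.55 to 1389, 1300 and 1339 (3.65 ± 0.09) and SNAI2 from 157.3, 183.3 and 139.5 to 2285, 2357 and 2151 (3.70 ± 0.11), while SNAI1 did not pass (0.41). The annexin ANXA1 rose by 4.11, VIM, the intermediate filament vimentin, by 1.62 and CDH2, N-cadherin, by 1.31. THY1, which marks stem cells as well as fibroblasts, fell (-1.75). So did TWIST2 (-1.95). Of the epithelial list, 19 of 31 epithelial genes fell and 7 rose (median -0.81). CDH1, E-cadherin, read 13574, 12761 and 13237 at d0 and 1534, 1395 and 1365 in the RA-labelled arrays (-3.19 ± 0.08, adjusted p = 1.28e-09), and the tight junction gene CLDN7 3684, 3750 and 3976 and then 425.8, 417.1 and 319.6 (-3.25 ± 0.11). EPCAM (-1.99), GRHL2 (-2.97) and RAB25 (-2.97) fell too. The genes of simple epithelial keratins went the other way, with KRT7 from 106.9, 57.15 and 135.1 to 1809, 1882 and 1802 (4.06 ± 0.22), KRT8 by 2.51 and KRT18 by 1.56, and the desmosome and junction genes DSP (1.27), JUP (1.61), PKP2 (0.48) and CLDN4 (2.19) rose with them. The other 3 probe sets of KRT7 were not called.

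Contractile and serum response genes mostly rose. In the smooth muscle and actin list 17 of 21 rose, none fell and 4 did not pass (median 0.99); 1 fell without RA-labelled replicate 2, with a trended robust variance or with dim genes left out. CNN1, smooth muscle calponin, read 378.3, 329.4 and 527.2 at d0 and 3885, 4139 and 3780 in the RA-labelled arrays (3.23 ± 0.15, adjusted p = 3.99e-08), ACTA2, smooth muscle actin, 1046, 1061 and 1042 and then 9569, 10072 and 9598 (3.20 ± 0.07), and TGFB1I1 862.9, 827.2 and 1032 and then 4421, 5127 and 5263 (2.43 ± 0.12). MYH11, the smooth muscle myosin, did not pass (-0.18). Of 24 serum response and YAP targets 18 rose and 3 fell (median 1.83): ANKRD1 rose from 605.7, 618.5 and 474.6 to 9738, 9132 and 9791 (4.05 ± 0.10), FOSL2 by 3.22 and JUN by 2.04, and MYC (-1.09) and IER2 (-0.45) fell. Serum response factor binds the CArG box. This motif was found in 3 of 15 smooth muscle promoters (20%) and 2 of 18 serum response promoters (11.1%), beside 1.29% of all promoters. TAGLN had no entry. The cardiac list held it at a share like that of the serum response list, in 2 of 19 (10.5%). For the smooth muscle and the serum response list, the promoter of the gene with the largest rise among those holding the motif is shown with the motif in capitals. ACTG2, enteric smooth muscle actin (chr2:73892758-73893057, plus strand), which rose from 958.8, 993.2 and 964.9 to 1575, 1595 and 1424 (0.65 ± 0.07), has matches at -110 and -73. EGR1 (chr5:138465229-138465528, plus strand) has matches at -105 and -83.
ACTG2: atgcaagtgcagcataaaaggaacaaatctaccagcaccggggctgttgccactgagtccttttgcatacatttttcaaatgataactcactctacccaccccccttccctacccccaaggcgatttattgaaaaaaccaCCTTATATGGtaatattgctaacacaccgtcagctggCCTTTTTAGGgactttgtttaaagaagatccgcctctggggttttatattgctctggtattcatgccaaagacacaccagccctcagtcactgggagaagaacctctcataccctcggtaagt
EGR1: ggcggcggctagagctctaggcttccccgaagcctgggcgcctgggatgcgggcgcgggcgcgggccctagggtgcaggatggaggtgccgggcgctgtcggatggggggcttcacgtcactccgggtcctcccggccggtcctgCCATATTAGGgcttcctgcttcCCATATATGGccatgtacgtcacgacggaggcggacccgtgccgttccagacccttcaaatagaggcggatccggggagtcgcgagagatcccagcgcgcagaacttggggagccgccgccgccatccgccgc

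Markers of later lineages moved in part. The counts of all lineage lists below stand beside 25.3% of all genes that rose and 25.2% that fell. A list near these shares does not stand apart. Of 16 primitive streak and mesendoderm genes 8 fell and 1 rose; EOMES read 256.1, 293.5 and 423.5 at d0 and 71.94, 58.48 and 89.5 in the RA-labelled arrays (-1.91 ± 0.21), MIXL1 fell by 1.45 and TBXT, brachyury, by 0.87 on the log2 scale, and LHX1 rose (1.58). In the endoderm list 6 of 24 rose and 4 fell, close to the background; without RA-labelled replicate 3, 11 rose. AFP, alpha-fetoprotein, read 100.8, 74.57 and 86.86 at d0 and 2070, 1818 and 663.6 in the RA-labelled arrays (3.74 ± 0.41), and TTR, transthyretin, 52.6, 25.82 and 54.41 and then 999.7, 706.5 and 229.6 (3.27 ± 0.44). Replicate 3 was the lowest RA-labelled array for both, though still above every d0 array, and ALB, albumin, and SOX17 did not pass. GATA6, a factor of endoderm and heart, rose from 213.1, 246.7 and 194.4 to 1704, 1595 and 1442 (2.77 ± 0.10).

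Of 24 cardiac and lateral mesoderm genes 8 rose and 3 fell, beside 25.3% and 25.2% of all genes. Without d0 replicate 1 or RA-labelled replicate 1, 1 fell. MEF2C rose by 2.73 and NPPB, which encodes a natriuretic peptide, from 1895, 1747 and 1854 to 11111, 11185 and 11318 (2.60 ± 0.09), KDR fell from 1905, 2042 and 1960 to 227.8, 292 and 249.8 (-2.87 ± 0.11), and NKX2-5, TBX20 and TTN did not pass. Of 27 neural ectoderm genes 9 fell and 4 rose: ZIC2 fell from 10042, 10388 and 10651 to 746.6, 614.8 and 764.5 (-3.85 ± 0.09), OTX2 by 2.73 on the log2 scale, and SOX1 and SIX3 did not pass. In the neuronal list 9 of 26 rose and 6 fell, the falls close to the share of all genes. STMN2 went from 1071, 1076 and 1007 to 9786, 10588 and 11699 (3.32 ± 0.08), while ELAVL3, ELAVL4 and SNAP25 did not pass. Of 21 neural crest genes 12 rose and 4 fell (median 0.70); DLX2 rose from 6.321, 29.61 and 7.759 to 496.9, 412.1 and 362 (3.91 ± 0.28) and SOX9 by 1.67, SOX10 did not pass (-1.14), and ERBB3 (-2.84) and EDNRB (-2.28) fell.

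Among 27 trophoblast and amnion genes 11 rose and 3 fell: GATA3 rose from 373.4, 366.7 and 381.5 to 2808, 2707 and 2531 (2.79 ± 0.06), and CGA, GCM1 and ELF5 did not pass. In the endothelial and blood list 10 of 22 rose and 2 fell; TIE1 rose from 58.29, 21.31 and 49.02 to 470.1, 512.8 and 518.5 (3.19 ± 0.28) and FLI1 by 2.72, while KDR and FLT1 (-2.09) fell and VWF, TAL1 and CD34 did not pass. In the fibroblast list, which shares COL1A1, COL3A1 and others with the lists above, 8 of 15 rose and 2 fell, and PRRX1, OGN and DPT did not pass. Germ cell genes gave 3 rises and 3 falls of 16, no more than the shares of all genes. KIT (-3.22) and DAZL (-3.40) were among the falls. The summed signal of the 15 fibroblast markers was 32320 to 34007 at d0 and 81540 to 93475 in the RA-labelled arrays, and that of the 22 endothelial and blood markers was 7210 to 7307 at d0 and 4331 to 4558 in the RA-labelled arrays. KDR and FLT1, the 2 genes of that list that fell, made up most of its sum at d0, while 10 of the 22 rose and the median difference was 0.23. Each of these lineage lists thus held members that rose, members that fell and members that did not pass, and the lists' part in the matrix and muscle results was not tested.

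Metabolic and stress genes also changed. Of 20 genes of cholesterol and fatty acid synthesis 14 fell and 2 rose (median -0.93): DHCR7, the last enzyme of cholesterol synthesis, fell from 2708, 2566 and 2453 to 504.1, 598.6 and 467.2 (-2.27 ± 0.13, adjusted p = 1.75e-07), INSIG1, a sterol sensor, by 2.26 on the log2 scale and HMGCS1 by 1.80. Of 23 genes of the integrated stress response and amino acid supply 19 rose and 2 fell (median 0.96). DDIT3, the stress factor CHOP, read 73.06, 64.17 and 130 and then 667.5, 543.3 and 796.5 (2.74 ± 0.22), TRIB3 rose by 2.35 and ATF4 itself by 0.43, and the serine synthesis gene PHGDH fell (-0.54). The glycolysis and hypoxia list was mixed, 12 rising and 7 falling of 28, with the glucose transporter SLC2A1 (1.80), PFKP (2.24) and NDRG1 (3.34) up, the transporter SLC2A3 (-0.44) and the kinases HK2 (-1.33) and PDK1 (-1.78) down, and LDHA, PGK1, TPI1 and GAPDH not passing.

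In the MHC class I and interferon list 12 of 23 rose and 9 fell. The class I chains HLA-B (0.80) and HLA-C (0.71) and their partner B2M (0.88) rose, and the immunoproteasome subunits PSMB8 (-1.91) and PSMB9 (-1.47) fell. IFITM1, an interferon-induced membrane protein, fell from 20869, 17805 and 23152 to 1655, 1382 and 1545 (-3.74 ± 0.11), while IFI6 (1.85) and ISG15 (1.01) rose. Of 14 IGF system genes 7 rose and 3 fell; IGFBP7 rose from 4969, 6017 and 5347 to 24485, 23449 and 26338 (2.18 ± 0.09) and IGFBPL1 fell from 1869, 1648 and 1832 to 465.6, 414.2 and 420.8. Of 13 metallothionein and metal response genes 4 rose and 3 fell, MT1E among the rises (1.00) and SLC39A10 among the falls (-0.81).

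The direct comparison of the day 6 groups asked which of these changes differed between RA-labelled and Dox-labelled cells in the same medium at the same time. It called 5120 genes (25.9%), 2407 higher in the RA-labelled arrays (12.2%) and 2713 lower (13.7%). Because both comparisons use the RA-labelled arrays, counts over both are given as descriptions. Of all genes 14.8% were higher in the RA-labelled arrays than at d0 without a call between the day 6 groups, and 15.2% were lower. A further 7.97% were above both other groups and 8.21% below both. The RA-labelled arrays lay between, above d0 and below the Dox-labelled arrays, for 2.54% of genes, and below d0 and above the Dox-labelled arrays for 1.81%.

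Among genes above both groups, GALNT16 read 8231, 9505 and 8713 against 385.7, 362.3 and 362.8 in the Dox-labelled arrays (4.51 ± 0.09, adjusted p = 2.48e-09); with Dox at d0 its mean was 2694. GREM1 read 11192, 11410 and 10901 against 678.1, 502.4 and 754.9 (4.10 ± 0.15), and LOXL4, a lysyl oxidase, 3762, 3238 and 3996 against 404.4, 520.6 and 578.2 (2.84 ± 0.13). NEGR1 (3.48), a neuronal adhesion protein, C5orf46 (2.94), the kinase DYRK3 (2.79), ADGRE5 (2.71) and DPYD (2.50), which breaks down pyrimidines, completed the 8 named by rule. All 8 genes of a list raised by Dox at d0 in earlier results of these data rose against d0 in the RA-labelled arrays (median 1.99). That list was chosen on these samples, so its direction is no independent evidence. Against the Dox-labelled arrays 5 of the 8 were higher, among them GALNT16, SLITRK5 (454.3, 492 and 485.8 against 41.87, 42.89 and 48.46) and LIX1 (1.56), and MEIS2, PRTG (-1.82) and PKDCC (-2.58) were lower.

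Below both groups stood RARRES2, with 17.39, 17.8 and 13.01 against 1336, 1212 and 1429 in the Dox-labelled arrays (-5.39 ± 0.12, adjusted p = 3.53e-09), and CYP26A1 (-6.70 ± 0.09), which was 104-fold lower. NR5A2, the nuclear receptor LRH-1, read 26.76, 24 and 20.31 against 1456, 1575 and 1506 (-5.27 ± 0.10). NMU, the peptide neuromedin U, read 155.7, 156.1 and 175.1 against 2289, 2200 and 1954 (-3.60 ± 0.08). FREM2 (-3.22), GRIA4 (-3.98), MAL2 (-2.78) and SMOC2 (-3.35) completed the 8.

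Stem cell factors differed between the day 6 groups in both directions, 7 of 26 higher and 7 lower in the RA-labelled arrays. Over all genes 12.2% were higher and 13.7% lower. The summed signal of the 26 was 26809 to 28129 in the RA-labelled and 35493 to 36393 in the Dox-labelled arrays. Among the 7 higher ones, NANOG, which had fallen against d0, still read 638.9, 594.2 and 686.3 against 39.9, 33.35 and 36.89 in the Dox-labelled arrays (3.64 ± 0.08), and PRDM14 258.4, 288.5 and 250.1 against 20.25, 7.406 and 14.72 (3.25 ± 0.17). MIR302B was 23.6-fold higher (4.56 ± 0.10), but of 12 stem cell RNA-binding proteins and noncoding RNAs 1 was higher and 8 were lower (median -0.45). The 8 were 5 without RA-labelled replicate 3 or Dox-labelled replicate 2, or with the mean of probe sets. NODAL was lower (-0.81 ± 0.26, adjusted p = 0.0481), and this call was lost when single day 6 arrays were left out. Mitosis genes were lower in the RA-labelled arrays for 24 of 25 (median -1.03) and replication genes for 21 of 28 (median -0.57), beside 13.7% of all genes. TOP2A, which untangles DNA in mitosis, was lower by -1.50, NEK2 by -1.62 and MCM2 by -1.22, whereas CDKN2B (0.02 ± 0.11), CDKN1A (0.48 ± 0.18) and CDKN2A (-0.61 ± 0.23) did not pass.

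The matrix and contractile lists differed less evenly between the day 6 groups. The counts below stand beside 12.2% of all genes higher and 13.7% lower in the RA-labelled arrays. For collagens 12 of 27 were higher and 4 lower (median 0.25). For smooth muscle genes 3 were higher and 3 lower of 21, close to the shares of all genes. The count of higher smooth muscle genes was 1 without RA-labelled replicate 1 or 3 or Dox-labelled replicate 2. That of lower ones was 1 without RA-labelled replicate 3 or any Dox-labelled replicate. ACTA2 differed by -0.21 ± 0.07, a call that was lost when single day 6 arrays were left out and whose sign turned with the mean of its probe sets (0.01), CNN1 by -0.17 ± 0.15 without passing and LTBP2 by 1.75 ± 0.09. The matrix protein POSTN was 10.4-fold lower, with 1275, 979.9 and 872.1 against 10664, 10386 and 11485 (-3.38 ± 0.13). Epithelial genes were lower in the RA-labelled arrays for 19 of 31 (median -0.70), among them ESRP1 (248.3, 160.5 and 124.2 against 1240, 1289 and 993.7) and CDH1 (1534, 1395 and 1365 against 5839, 6129 and 5137). BMP targets were lower as well, with ID1 at 3386, 3283 and 3276 against 11303, 11977 and 10509 (-1.76 ± 0.09) and 14 of 22 genes of the list lower against 5 higher. In the cardiac list 14 of 24 were lower and none higher, and in the neural crest list 12 of 21 were lower and 1 higher. The IGF-binding proteins IGFBP3 (2723, 2892 and 1730 against 25373, 27067 and 27420) and IGFBP6 (782.6, 764 and 691.9 against 8933, 9508 and 9689) were also lower, by -3.47 and -3.62. Of the pregnancy-specific glycoproteins, PSG1 was higher in the RA-labelled arrays (403.6, 430.8 and 355.4 against 14.91, 15.76 and 47.11), although its probe sets may share sequence with other members of that family.

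**Figure D5:**
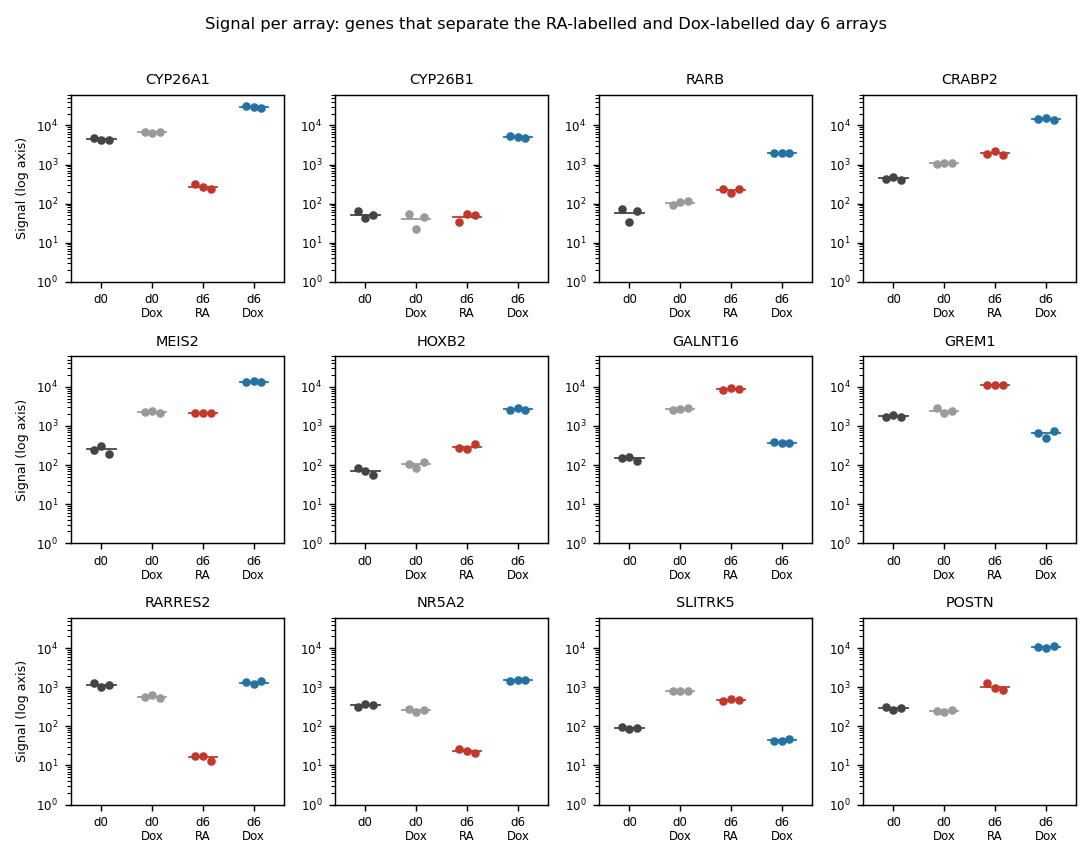
Signal on every array (vertical log axis) of 12 genes that separate the day 6 groups, with a line at each group mean. CYP26A1, CYP26B1, RARB, CRABP2, MEIS2 and HOXB2 are highest in the Dox-labelled arrays (d6 Dox, blue), GALNT16 and GREM1 in the RA-labelled arrays (d6 RA, red), and RARRES2 and NR5A2 are lowest in the RA-labelled arrays.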

How the data were processed

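Total RNA was read on 12 Affymetrix arrays, 3 per group. The deposited values are linear intensities, 1 per probe set; the sources used here do not name the software behind them, and the trimmed mean (2% off each end) was 500 on every array. Of 54675 probe sets 41097 had a single gene symbol in GEO's platform annotation, 1801 had several and 11777 were not listed. For 41043 the symbol was taken from RefSeq through the gene ID, whether or not it differed. Each of 19775 genes was represented by 1 such probe set, the brightest on average. Differences were tested on log2(value + 16) with limma 3.58.1 in R 4.3.3 (1 mean per group over all 12 arrays, 8 residual degrees of freedom, Benjamini-Hochberg adjustment over all genes, and over all probe sets for NR6A1 and the shared POU5F1 probe set). The code was tested on simulated data. No filter on dim genes was applied. Arrays were grouped by their titles.

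Genes were named by rule: the NR6A1 probe sets, CYP26A1 and CYP26B1; the 15 largest rises and falls among called genes whose arrays do not overlap and whose higher group mean reaches the median gene; up to 3 called rises and 3 called falls per list; the 8 largest each way that were called in the same direction against d0 and Dox-labelled arrays; and 8 genes raised by Dox at d0, with NODAL and NANOG. Further list members were chosen with their values in view. The members and lists were chosen with earlier results of these data known. Alternatives were another scaling, pseudocounts of 1 and 64, the mean of all probe sets, a filter on dim genes, a trended robust variance, the 6 arrays alone, a replicate block, each array left out, a 2-fold minimum and all probe sets. Promoters (300 bases) and miRNAs are from RefSeq, GRCh38.p14. The number of arrays limits the precision.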

Additional observations from a re-analysis of the deposited data

Results flagged for a closer look

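Of the 773 genes that were named or belong to a list, 20 moved in opposite directions from d0 in the RA-labelled and the Dox-labelled day 6 arrays, with limma calls in both comparisons and between the day 6 groups; a passing day 6 difference was a condition for inclusion and is given as a description. In 5 genes the RA-labelled arrays were above d0 and the Dox-labelled arrays below it. GREM1, a BMP inhibitor, was at 2.64 and -1.46 on the log2 scale against d0, a day 6 difference of 4.10 ± 0.15. SLITRK5, a neuronal membrane protein, was at 2.21 and -0.82, a difference of 3.03 ± 0.07. The day 6 difference was 3.38 for PSG1, 2.52 for PSG5 and 0.78 for the receptor IGF1R; the PSG probe sets may share sequence. The other 15 genes ran the reverse way. CYP26A1 was at -3.98 and 2.72, a difference of -6.70 ± 0.09, and NR5A2 at -3.19 and 2.08, a difference of -5.27 ± 0.10. GRIA4, a glutamate receptor subunit, was at -2.84 and 1.15 (difference -3.98), NMU at -3.37 and 0.23 (-3.60), and the cartilage collagen COL2A1 at -1.50 and 1.90 (-3.40). ID1, a BMP target, was at -1.15 and 0.61, a difference of -1.76 ± 0.09. The day 6 difference was -2.90 for CLDN10, -2.50 for ISL1, -2.41 for PSMB9, -2.01 for GAS1, -1.52 for MMP9, -1.36 for DPYSL3, -0.93 for DACT1, -0.91 for IER2 and -0.77 for SLC2A3. ISL1's fall against d0 was not called under some settings, and the day 6 difference of GAS1 was not called with the mean of its probe sets (-0.50). Over all genes 77 rose from d0 with the RA label but fell with the Dox label, and 137 did the reverse.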

How the results depend on the processing

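The counts of genes higher and lower than d0 (5007 and 4986) and higher and lower than the Dox-labelled arrays (2407 and 2713) stayed within 1.5 times under every scaling, pseudocount, variance and probe set setting tried, except those that change what is counted. With a 2-fold minimum they were 2119, 2100, 380 and 764, and over all 54675 probe sets 9699, 11130, 4267 and 4204. Leaving out single arrays gave 4669 to 4827 higher and 4603 to 4767 lower than d0, and 1869 to 2078 higher and 2174 to 2412 lower than the Dox-labelled arrays. With the replicate number as a block (replicate block) the counts were 4966, 4950, 2313 and 2588. Same-numbered d0 and RA-labelled arrays deviated together at r = 0.04 to 0.16, over 0.1 in 1 of 3 pairs, and differently numbered ones at -0.17 to 0.06. Of these arrays 5 of 6 correlated best with their own number. The number may thus mark something weakly shared, which the labels do not name, and the main fit did not use it. Centring each array on its median moved the median of all genes against d0 to 0.08 and the share of calls that are higher from 50.1% to 56.3%. Against d0, 11 of 210 named genes changed their call or sign in some setting, and against the Dox-labelled arrays 36 of 133. The sign turned for SLC30A1 against d0 (-0.01 with the mean of its probe sets), for CYP26B1 against d0 (0.03 without RA-labelled replicate 1, and -0.26 at the lowest, without d0 replicate 2) and for ACTA2 against the Dox-labelled arrays (0.01 with the mean of its probe sets); the cause was not tested. Of 148 list counts 57 moved in some setting, 41 of them when dim genes were left out, where fewer genes are tested. Signals near the added 16 have no reliable fold.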
